A study of Mus musculus with 6 samples.

Results

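Rab proteins are small GTPases that mark the membranes of the secretory and endocytic pathways, and the genes described here are the mouse Rab family together with the TBC-domain proteins and the factors that carry Rabs to and from membranes. A gene was taken as a member when its symbol was a Rab or Tbc1d name or that of a gene of prenylation and membrane extraction (Gdi2, Chm, Chml, Rabggta and Rabggtb here), and when the array had a probe set annotated with that symbol alone. This gave 93 members among 22180 genes tested, of which 58 are Rab GTPases, 30 are Tbc1d genes and 5 belong to the prenylation and extraction machinery. Where a member had several probe sets, as 10 did, the one with the highest mean over the 6 arrays stood for the gene. Rab4b was named here only on probe sets shared with other genes and was not tested.

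A Rab switches between a GTP-bound form that recruits effectors such as tethers and motors and a GDP-bound form. Exchange factors, among them the DENN-domain proteins, load GTP, and most TBC-domain proteins speed its hydrolysis. A newly made Rab is presented by an escort protein, Chm or Chml, to the geranylgeranyl transferase made of Rabggta and Rabggtb, and GDI proteins then lift the GDP-bound Rab off membranes and return it. In neurons the Rab3 group acts on synaptic vesicles and secretory granules, Rab5 on early endosomes, Rab7 on late endosomes and lysosomes, and Rab8 and Rab11 on delivery to the plasma membrane.

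RNA was measured in primary hippocampal cells of mouse embryos at day 18 of gestation, a culture for which the labels name no single cell type. An AAV1/2 virus was added at day 7 of culture, and RNA was taken another 7 days on. The knockdown group of 3 samples received a virus against Diras2, a brain-enriched small GTPase of the Ras family, and the control group of 3 samples a scrambled one. Both groups were thus infected, the labels describe 1 kind of knockdown virus and no uninfected cells, and effects of losing Diras2 and other effects of that virus cannot be told apart. The samples are labelled biological replicates without naming separate litters or preparations. The p-values given here therefore weigh differences against a spread that may partly be technical. Strain and sex are not given in the labels.

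Values are log2 RMA expression levels from 1 Affymetrix array per sample, and with 6 arrays the precision is limited by their number. RMA pulls weak signals towards a floor, and whether a low value lay above background was not tested. A difference is the knockdown mean minus the control mean on the log2 scale, a fold is 2 to the power of that difference, and a gene was said to rise or fall at an adjusted p under 0.05 in the limma fit over all genes. Arrays of the same group correlated at 0.988 to 0.995 and arrays of different groups at 0.981 to 0.989, and RNA integrity numbers (RIN) were 9, 9.3 and 9.2 in the knockdown and 9.2, 9 and 8.8 in the control. The target, Diras2, read 7.17, 6.23 and 6.08 in the knockdown and 10.17, 10.17 and 9.76 in the control arrays, a difference of -3.54 (SE 0.27, adjusted p = 0.00063 by limma). An exact two-sided permutation test of Diras2 alone gave p = 0.1, the smallest that 3 against 3 arrays allow. Both that test and the limma fit took the arrays as unpaired.

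Of 67 measured markers in 10 cell type lists, 3 rose and 3 fell. The markers that rose were Pdgfra of oligodendrocyte precursors (2.80) and Mki67 and Top2a of dividing cells (1.48 and 1.32), and those that fell were Lhx6 of inhibitory neurons (-1.20), Rgs5 of mural cells (-1.40) and Snap25, a synaptic protein of all neurons (-0.51). The mean level of the 7 inhibitory neuron markers was 8.08 to 8.83 in the knockdown arrays and 8.52 to 9.54 in the controls, that of the 8 pan-neuronal markers 10.68 to 10.98 and 10.76 to 11.20, that of the 6 precursor markers 5.83 to 7.01 and 5.60 to 5.98 that of the 7 fibroblast and mural markers 5.91 to 6.14 and 6.00 to 6.30, and that of the 6 markers of dividing progenitors 5.71 to 6.25 and 5.39 to 5.79. All 5 ranges overlapped between the groups, with the arrays taken as unpaired. Compared within each replicate number, a pairing that the labels do not state, the inhibitory and pan-neuronal means were lower in the knockdown. The precursor and dividing progenitor means were higher there, and the fibroblast and mural mean went both ways. Of the inhibitory list 6 of 7 markers lay below 0 and 1 above, with a median difference of -0.60, though only Lhx6 passed. Of the precursor list 4 markers lay above 0 and 2 below, and only Pdgfra passed. Of the pan-neuronal list 5 lay below 0 and 3 above, among them Tubb3 at 0.39, and only Snap25 passed. The progenitor list joins Mki67 and Top2a, whose groups did not overlap, with Nes, Sox2, Pax6 and Hes5, which did not pass, and of the fibroblast and mural list 5 of 7 lay above 0. The part of these markers in the results that follow was not tested, and in such bulk samples fewer cells of a type and less RNA per cell cannot be told apart.

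Between the groups the family changed in both directions, with 11 genes higher, 8 lower and 74 that missed the threshold. Higher were Rab2b and Rab33b of the endoplasmic reticulum and Golgi, Rab3c and Rab3d of regulated secretion and Rab23 of the cilium. The escort protein Chml and Tbc1d1, Tbc1d7, Tbc1d8, Tbc1d14 and Tbc1d22a were higher too. Rab5b, Rab7, Rab8a, Rab29, Tbc1d2b, Tbc1d9b, Tbc1d17 and Tbc1d30 were lower. The spread of these genes over steps of membrane traffic was not tested. Together 20.4% of the members changed, 11.8% upward and 8.60% downward. Over all genes tested 7.80% changed, 4.17% upward and 3.64% downward. More of the members than of all genes had a mean level of at least 5, 77 of 93 against 11236 of 22180. All 19 calls lay among those 77, of which 24.7% changed, and of the 11236 genes 14.5% changed, 7.78% upward and 6.67% downward. The median difference was 0.06 for the members and 0.00 for all genes. The 3 knockdown and 3 control values did not overlap for 39 members, 41.9%, of which 23 were higher in the knockdown and 16 lower. Over all genes 25.5% did not overlap, 13.4% higher and 12.1% lower. At a mean level of at least 5 the gap was smaller, 36 of 77 members, 46.8%, beside 38.6% of all genes. The counts by role group given below are small, and they are to be read beside these shares over all genes.

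The count of falling members depended on single arrays, as did that of all genes. In place of 8 members it was 3 when knockdown replicate 2 or 3 or control replicate 2 was left out, and 3 when RIN was added to the fit. Over all genes falls numbered 330, 368 and 306 without these arrays and 356 with RIN, in place of 807. The drop is therefore not read as a trait of the members. Rising members numbered 8 to 12 when 1 array was left out, where rises over all genes ran from 383 to 800 in place of 924. With the replicate number as a block 12 members rose and 9 fell, where 6.05% of all genes rose and 5.64% fell, 11.7% in all. The 2 added by the block were Rab10, which delivers vesicles to the plasma membrane, and Rab34, linked to lysosome position and cilia. The call of 11 members was kept in every one of 15 other fits, and these were Tbc1d14, Rab2b, Chml, Rab3d, Rab23, Rab33b, Tbc1d1 and Tbc1d22a among those that rose and Tbc1d30, Rab5b and Rab8a among those that fell.

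**Figure D1:**
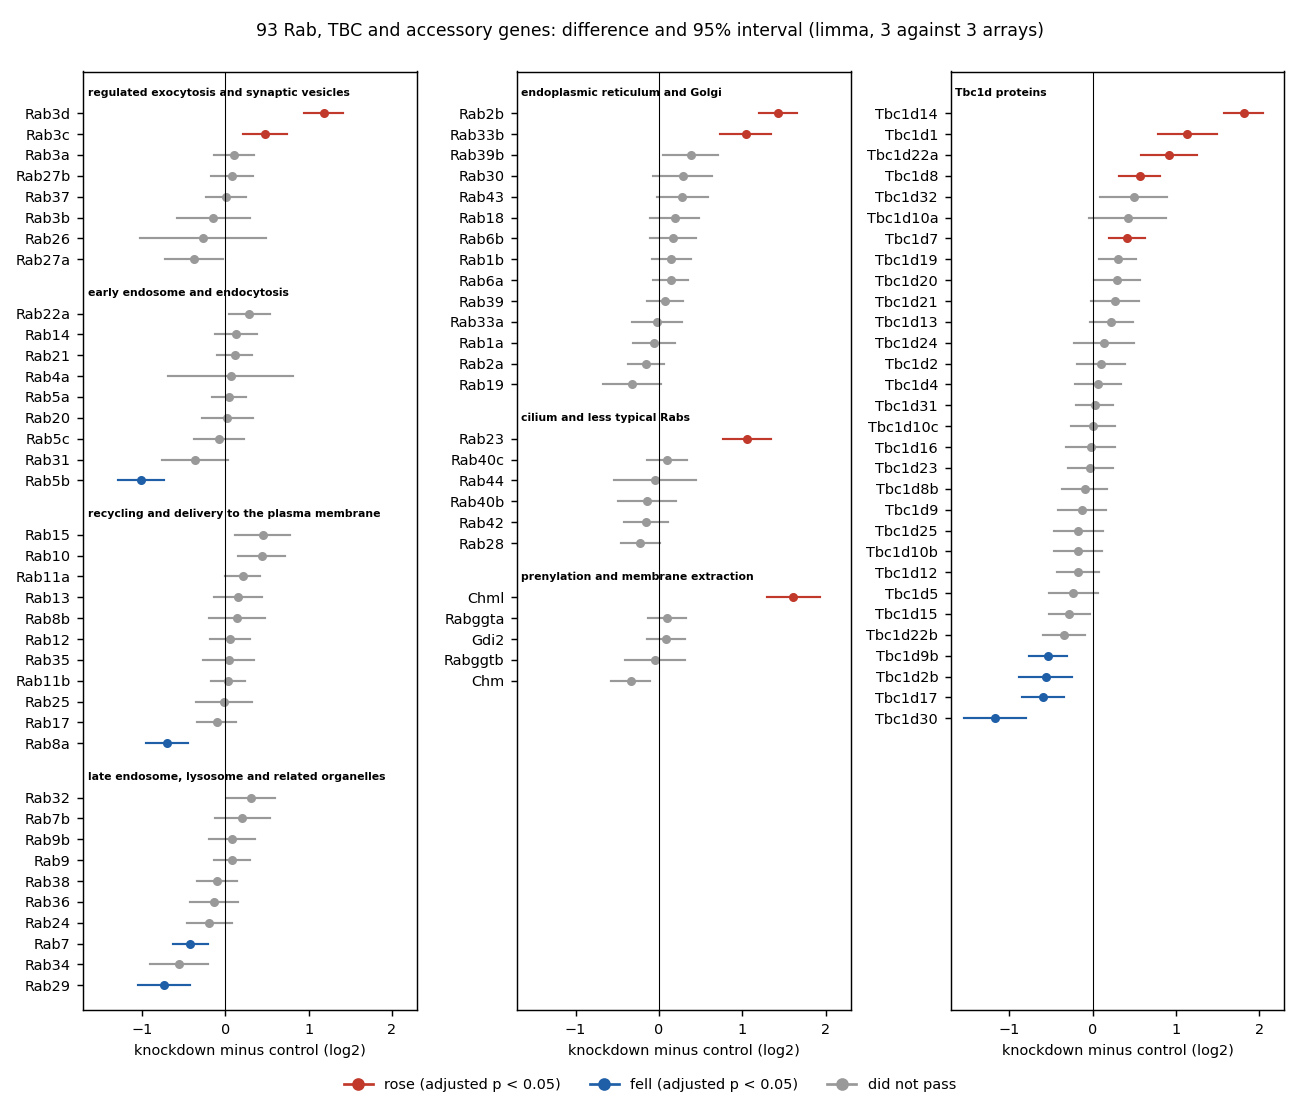
Difference between knockdown and control (log2, x axis) for each of the 93 members, grouped by role, with points for the difference of the group means over 3 and 3 arrays and lines for the 95% interval from limma. The 11 members that rose are red and the 8 that fell blue, and the 74 others lie around 0, between -0.55 for Rab34 and 0.49 for Tbc1d32.

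Promoter stretches are shown for the 3 members with the widest rises and, of the members that fell and have an entry, the one with the widest fall, so that the sequence before the start can be read beside the values. Each run gives the 250 bases before the annotated start, 5′ to 3′ on the strand of the gene, from the RefSeq promoter table of assembly GRCm38.p6, and for Tbc1d14, which has 2 annotated starts, the outermost was taken. Capitals mark matches on either strand to CACGTG (the E-box), TGACGTCA (the cyclic AMP response element), CCAAT and GGGCGG (the GC box), 4 motifs whose letters do not contain one another.
Tbc1d14 (chr5:36582398-36582647, minus strand): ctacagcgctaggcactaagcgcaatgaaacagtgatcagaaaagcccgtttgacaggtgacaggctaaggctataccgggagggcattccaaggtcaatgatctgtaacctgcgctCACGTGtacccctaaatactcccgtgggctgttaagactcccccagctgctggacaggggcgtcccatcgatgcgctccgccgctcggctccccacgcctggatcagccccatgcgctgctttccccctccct
Chml (chr1:175688354-175688603, minus strand): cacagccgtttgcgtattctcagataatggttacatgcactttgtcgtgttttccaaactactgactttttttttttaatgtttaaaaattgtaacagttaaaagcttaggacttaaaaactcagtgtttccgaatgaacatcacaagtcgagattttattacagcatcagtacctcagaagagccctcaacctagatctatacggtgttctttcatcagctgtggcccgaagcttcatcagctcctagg
Rab2b (chr14:52279396-52279645, minus strand): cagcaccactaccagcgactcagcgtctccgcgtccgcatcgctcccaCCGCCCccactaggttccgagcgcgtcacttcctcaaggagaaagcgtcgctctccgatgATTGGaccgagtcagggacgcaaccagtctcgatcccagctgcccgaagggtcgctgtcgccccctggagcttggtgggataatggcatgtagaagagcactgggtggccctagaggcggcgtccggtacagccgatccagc
Rab5b (chr10:128696269-128696518, minus strand): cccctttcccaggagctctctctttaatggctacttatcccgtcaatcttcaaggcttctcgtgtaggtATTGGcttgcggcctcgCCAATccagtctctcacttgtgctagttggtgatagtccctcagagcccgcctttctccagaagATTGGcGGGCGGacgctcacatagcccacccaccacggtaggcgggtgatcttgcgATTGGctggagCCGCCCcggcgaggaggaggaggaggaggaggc
The Tbc1d14 stretch held 1 E-box, 133 bases before the start, and none of the other motifs. The stretch before Chml, a gene that overlaps Opn3, held no match and was 38.8% G and C, against 59.2% for Tbc1d14, 64.0% for Rab2b and 59.2% for Rab5b. Rab2b had 1 CCAAT and 1 GC box, and Rab5b had 4 CCAAT and 2 GC boxes.

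Of the 93 members 75 had an entry in that table, among them the 11 that rose and 6 of those that fell, and a motif was counted where it stood before any annotated start of the gene. An E-box stood before 9 of these 75 and before 6.86% of 27025 genes with an entry. It stood before 3 of the 11 members that rose, Tbc1d14, Rab23 and Tbc1d7, and before none of the 6 that fell. The cyclic AMP response element was found before 2 members, 2.67% against 1.77% of all genes, and before no member that changed. CCAAT was found before 41.3% of members and 37.5% of all genes, and before 3 of the 11 that rose and 3 of the 6 that fell. The GC box was found before 73.3% of members and 35.4% of all genes, and before 8 of the 11 and 4 of the 6. The genes behind the shares over all genes were not matched to the members on expression level or number of annotated starts. A higher share is therefore not read as a trait of the members. These are matches of letters, and whether any factor binds there was not measured.

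Among the 8 Rabs of regulated exocytosis and synaptic vesicles 2 rose and 0 fell, with a median difference of 0.05. Rab3d, known from secretory granules, read 7.56, 7.62 and 7.37 in the knockdown arrays and 6.37, 6.32 and 6.32 in the controls. Every knockdown array lay above every control array by at least 1.00, and the gene rose 2.27-fold, by 1.18 (SE 0.10, adjusted p = 0.00093). Its second probe set, a weaker one, read 5.47, 5.52 and 5.34 against 4.67, 4.44 and 4.55, a difference of 0.89 (adjusted p = 0.0031 over all probe sets).

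Rab3c, a synaptic vesicle Rab, read 10.35, 10.42 and 10.50 in the knockdown and 9.78, 9.97 and 10.10 in the control, so the groups were separate but close. The rise was 0.47 (SE 0.11, adjusted p = 0.0429). The call was lost on leaving out any knockdown array or control replicate 1 or 2 (0.0741 to 0.142), on adding RIN to the fit (0.0860), on quantile normalisation (0.0716) and on taking the mean of both probe sets (0.32, adjusted p = 0.148), the weaker of which had a difference of 0.16.

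The other Rab3 genes did not pass. Rab3a, the most studied synaptic vesicle Rab, read 11.42, 11.44 and 11.20 against 11.31, 11.22 and 11.21, a difference of 0.11 with a 95% interval of -0.14 to 0.35. Rab3b had a difference of -0.14 (-0.58 to 0.29). Rab27a and Rab27b, which act in granule docking and exocytosis, had differences of -0.38 (-0.72 to -0.03) and 0.08 (-0.17 to 0.34), and their adjusted p was 0.2 and 0.755. The intervals are for each gene alone, which is why that of Rab27a can miss 0 without a call. Rab26 had the widest interval of the group, -1.03 to 0.49, its values running from 6.68 to 7.37 in the knockdown and from 6.58 to 7.98 in the control.

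Of the 9 measured Rabs of early endosomes 1 fell and 0 rose. Rab5b read 8.18, 7.87 and 7.89 in the knockdown and 9.11, 8.92 and 8.93 in the control, with all knockdown arrays below all controls. It fell 2.01-fold, a difference of -1.01 (SE 0.12, adjusted p = 0.00287). Its relatives on the same organelle gave differences near 0, 0.04 (95% interval -0.16 to 0.24) for Rab5a and -0.07 (-0.37 to 0.23) for Rab5c. Rab22a, an early endosome Rab, had the smallest p of the others, with a difference of 0.29 and an adjusted p of 0.161.

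Of the 11 Rabs of recycling and delivery to the plasma membrane 1 fell and 0 rose. Rab8a, which directs vesicles to the cell surface and the cilium, read 8.41, 8.34 and 8.12 in the knockdown and 9.03, 8.98 and 8.95 in the control. The groups were separate, and the fall was 1.62-fold, a difference of -0.70 (SE 0.11, adjusted p = 0.00776). A second Rab8a probe set read 7.29, 6.92 and 6.96 against 7.61, 7.89 and 7.72 and gave -0.68 (adjusted p = 0.021 over all probe sets).

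Rab10 was at 10.74, 10.65 and 10.58 in the knockdown and at 10.41, 10.23 and 10.02 in the control, higher in each knockdown array than in any control. Its difference was 0.44. It did not pass at an adjusted p of 0.0739, and passed at 0.0357 in the fit with the replicate block. Rab11a and Rab11b, the Rabs of recycling endosomes, had differences of 0.21 (95% interval -0.0046 to 0.418) and 0.03 (-0.17 to 0.24). The 3 probe sets of Rab11b gave 0.03, -0.16 and 0.25, and it was the only one of the 10 members with several probe sets whose probe sets differed in sign.

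Of the 10 Rabs of late endosomes, lysosomes and related organelles 2 fell and 0 rose, with a median difference of -0.12. Rab7, which drives late endosomes to fuse with lysosomes, read 12.12, 12.22 and 12.20 in the knockdown and 12.60, 12.58 and 12.62 in the control. The groups were tight and separate, and the fall was 1.34-fold, a difference of -0.42 (SE 0.09, adjusted p = 0.0291). The call was lost on leaving out any of the 6 arrays (0.0644 to 0.102) and on adding RIN to the fit (0.0996).

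Rab29, a partner of the kinase Lrrk2, read 5.76, 5.37 and 5.42 in the knockdown against 6.39, 6.27 and 6.10, a fall of 0.74 on the log2 scale (SE 0.14, adjusted p = 0.016). That call too was lost, without knockdown replicate 2 or 3 or control replicate 2 (0.0692 to 0.0733) and with RIN in the fit (0.0721). Rab34 had 5.76, 5.90 and 6.08 against 6.32, 6.31 and 6.77, a difference of -0.55 that did not pass (0.0692) and passed at 0.0179 in the fit with the replicate block. Its groups were separate.

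Among the 14 measured Rabs of the endoplasmic reticulum and Golgi 2 rose and 0 fell, with a median difference of 0.16. Rab2b, of the early secretory pathway, read 9.83, 9.81 and 9.81 after knockdown and 8.26, 8.48 and 8.41 in the control. The knockdown arrays differed among themselves by 0.01 (SD, n = 3), and the rise was 2.70-fold, a difference of 1.43 (SE 0.10, adjusted p = 0.000538). Rab33b, a Golgi Rab that binds the autophagy protein Atg16l1, read 8.54, 8.35 and 8.21 against 7.43, 7.43 and 7.12. It rose 2.06-fold, by 1.04 (SE 0.13, adjusted p = 0.00345), and every knockdown value lay above every control value.

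The 4 Golgi and endoplasmic reticulum Rabs with the strongest probe signals, Rab1a, Rab6a, Rab6b and Rab2a, had differences of -0.06, 0.14, 0.17 and -0.16, and none passed. Signals of different probe sets are not levels that can be ranked between genes. Of the 6 Rabs of the cilium and of less typical kind 1 rose and 0 fell. Rab23, an inhibitor of Sonic hedgehog signalling, read 7.76, 7.68 and 7.64 in the knockdown and 6.82, 6.40 and 6.70 in the control. It rose 2.08-fold, by 1.05 (SE 0.13, adjusted p = 0.00291), with no overlap between groups. Rab28, another Rab of the cilium, had a difference of -0.22 (adjusted p = 0.253).

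Of the 5 measured genes of prenylation and membrane extraction 1 rose and 0 fell. Chml, the escort protein also called REP-2, read 6.80, 6.95 and 6.53 in the knockdown and 5.03, 5.10 and 5.32 in the control. The groups were far apart, and the rise was 3.05-fold, a difference of 1.61 (SE 0.14, adjusted p = 0.000834). Chm, the other escort protein, read 9.41, 9.26 and 9.24 against 9.72, 9.55 and 9.66, lower in each knockdown array, with a difference of -0.34 and an adjusted p of 0.0897. The transferase subunits Rabggta and Rabggtb had differences of 0.10 and -0.05 and Gdi2, which extracts Rabs from membranes, one of 0.08 (95% interval -0.14 to 0.31).

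**Figure D2:**
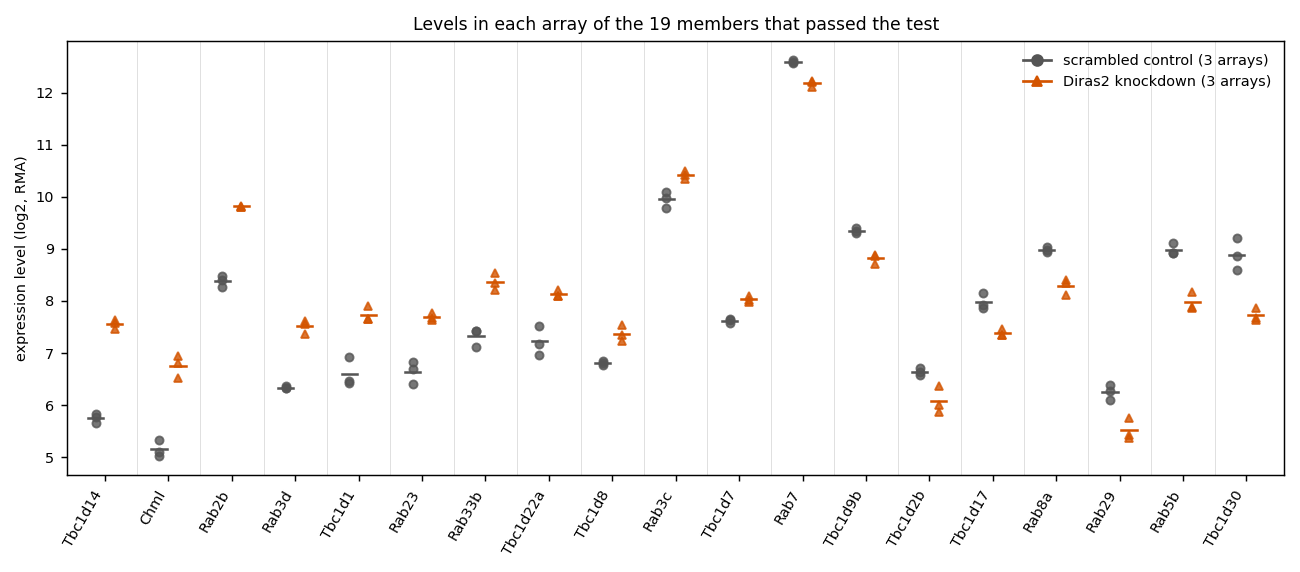
Expression level (log2 RMA, y axis) of the 19 members that passed the test in each of the 3 control arrays (grey circles) and 3 knockdown arrays (orange triangles), with bars for the group means. For each gene the groups do not overlap, the widest step up being that of Tbc1d14 by 1.81 and the widest step down that of Tbc1d30 by -1.17.

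The 30 Tbc1d genes, most of which code for GTPase-activating proteins of Rabs, changed in both directions, with 5 that rose, 4 that fell and a median difference of 0.02. The largest change of any member was that of Tbc1d14, a protein of recycling endosomes that controls the formation of autophagosomes. It read 7.58, 7.64 and 7.47 in the knockdown and 5.83, 5.65 and 5.78 in the control. The groups were further apart than their own spread, and the rise was 3.51-fold, a difference of 1.81 (SE 0.10, adjusted p = 0.000213).

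Tbc1d1, known for its part in glucose transporter traffic, read 7.66, 7.66 and 7.90 against 6.43, 6.46 and 6.92 and rose 2.20-fold, by 1.14 (SE 0.15, adjusted p = 0.00415). A second, dim probe set of Tbc1d1 had a difference of 0.40 and did not pass (0.234 over all probe sets), and with the mean of both the difference was 0.77 (adjusted p = 0.00968). Tbc1d22a read 8.22, 8.09 and 8.10 against 7.52, 7.18 and 6.97 and rose by 0.91 (SE 0.15, adjusted p = 0.00859). Both genes had separate groups.

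Smaller rises were seen for Tbc1d8 and for Tbc1d7, the subunit of the tuberous sclerosis complex. Tbc1d8 read 7.53, 7.23 and 7.34 against 6.77, 6.84 and 6.80, a rise of 0.56 (SE 0.11, adjusted p = 0.0182) that was not called without knockdown replicate 1 or 3 or control replicate 2 (0.0503 to 0.0710). A probe set that names Tbc1d8 together with Rpl31 and Rpl31-ps12 was not tested and had a difference of 0.01. Its signal cannot be given to 1 gene. Tbc1d7 read 7.98, 8.09 and 8.02 against 7.57, 7.63 and 7.65, a rise of 0.41 (SE 0.09, adjusted p = 0.0327) that was not called on leaving out any of the 6 arrays (0.0641 to 0.123) or on adding RIN (0.120). Neither gene had overlapping groups.

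The Tbc1d gene that fell most was Tbc1d30, an activator of GTP hydrolysis by Rab8. It read 7.86, 7.63 and 7.68 in the knockdown and 9.21, 8.87 and 8.59 in the control, with the 3 controls spread more widely than the knockdown arrays. The fall was 2.25-fold, a difference of -1.17 (SE 0.16, adjusted p = 0.00464). Tbc1d17, likewise described as acting on Rab8, read 7.46, 7.34 and 7.34 against 7.86, 7.92 and 8.15 and fell 1.51-fold, a difference of -0.60 (SE 0.11, adjusted p = 0.0163).

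Tbc1d9b, an activator of GTP hydrolysis by Rab11, read 8.89, 8.71 and 8.87 against 9.31, 9.34 and 9.41 and fell 1.44-fold (-0.53, SE 0.10, adjusted p = 0.0163). Tbc1d2b, described as acting on Rab22, read 6.36, 5.86 and 6.01 against 6.71, 6.57 and 6.64 and fell 1.48-fold (-0.56, SE 0.14, adjusted p = 0.047). The groups of both genes were separate. Without knockdown replicate 2 or 3 or control replicate 2 the calls of Tbc1d17 (0.0612 to 0.0734) and Tbc1d9b (0.0524 to 0.0719) were lost, and with RIN in the fit their adjusted p was 0.0724 and 0.0843. Tbc1d2b passed without knockdown replicate 1 but not without any of the other arrays (0.0988 to 0.153), with median centring (0.0737) or with RIN in the fit (0.186).

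Members that share a name stem were then compared, since several Rabs are encoded by close copies. Among 19 such families with 42 measured genes, 11 held a changed member, and in none of them did every member change or did 1 member rise and another fall. With 20.4% of all members called, few such families would be found in any case. No expected count was computed, and these counts are not read as a trait of close copies. Because a gene that passes beside one that does not is no evidence of a difference, the gap between both copies was taken within each array and compared between groups. With 3 against 3 arrays the exact two-sided permutation p of such a gap cannot go below 0.1, the value reached by every pair given here whose groups did not overlap. In all 28 pairs were computed, and p-values adjusted over them cannot pass either. The groups did not overlap for 18 of the 28, among them Rab11a with Rab11b and Rab27a with Rab27b, where neither copy was called. Several pairs share a gene, and no such share was computed for other pairs of genes. For single genes it was 25.5% over all genes and 38.6% at a mean level of at least 5. The count is therefore not read as a trait of close copies.

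Chm lay above Chml by 2.54 ± 0.21 (SD, n = 3) in knockdown arrays and by 4.49 ± 0.18 in control arrays, a shift of -1.95 and the widest of the 28 pairs. For Rab2a over Rab2b it was 1.15 ± 0.06 against 2.74 ± 0.17, for Rab5a over Rab5b 1.74 ± 0.19 against 0.69 ± 0.13, and for Rab8a over Rab8b 1.97 ± 0.18 against 2.81 ± 0.18. Rab33a over Rab33b shifted from -0.32 ± 0.14 in the control to -1.38 ± 0.10 in the knockdown. In these 5 pairs the gap moved by more than the spread between arrays. Each was chosen for a called copy, so a move of that kind follows largely from the choice. It is no separate support for a difference between copies, and this holds as well for the Rab3 and Tbc1d22 pairs below.

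Within the Rab3 family the gap of Rab3a over Rab3d was 3.84 ± 0.02 in the knockdown and 4.91 ± 0.03 in the control, and that of Rab3a over Rab3c was 0.93 ± 0.20 and 1.30 ± 0.21. Between the nearest arrays of each group the first pair was separated by 1.03 and the second by 0.04. Tbc1d22a over Tbc1d22b moved from -1.71 ± 0.29 to -0.46 ± 0.11. By contrast Rab6a over Rab6b, at 0.29 ± 0.11 and 0.32 ± 0.19, and Rab9 over Rab9b, at -1.81 ± 0.07 and -1.80 ± 0.21, had overlapping groups and shifts of -0.03 and -0.007, with exact permutation p of 0.8 and 1. Probe sets of close copies can bind each other's transcript, and this was not tested.

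**Figure D3:**
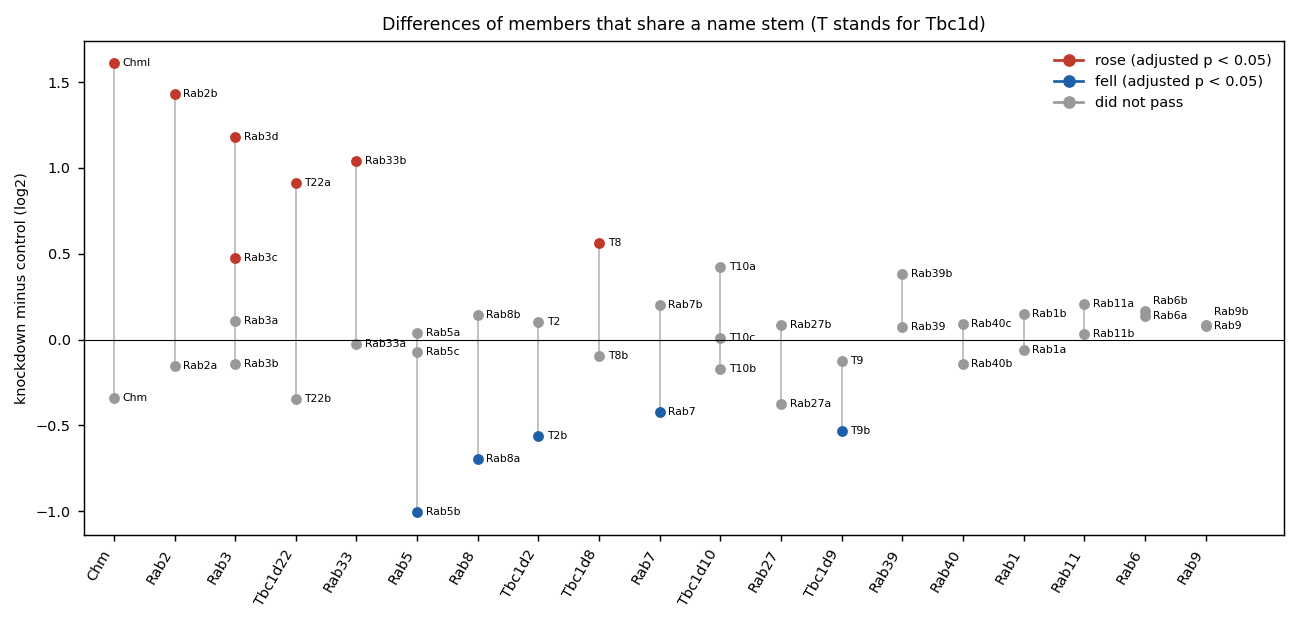
Difference between knockdown and control (log2, y axis) for the 42 members of 19 families that share a name stem, families ordered by the distance between their highest and lowest member, each point being 1 gene over 3 and 3 arrays. Chml at 1.61 and Chm at -0.34 lie farthest apart, and Rab9 and Rab9b lie at 0.08 together.

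Partners of the Rabs that do not carry these names were read from lists of exchange factors, effectors, tethers and other regulators. Of 127 measured partners 12 rose and 9 fell, 16.5%, beside 7.80% of all genes, with a median difference of -0.03. At a mean level of at least 5 the share was 19.4% of 108 partners beside 14.5% of 11236 genes. Rising partners numbered 6 without knockdown replicate 2 and 5 without control replicate 2, where rises over all genes went from 924 to 418 and 383. With the replicate block 16 rose and 12 fell, the 7 added being outside the genes named here and none of the 21 being lost. The genes given are the 4 with the smallest p of each list, and the counts by list are to be read beside the shares over all genes.

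Of 12 TBC-domain proteins outside the Tbc1d names and subunits of the Rab3 GTPase-activating complex 3 rose and 1 fell. Evi5, a TBC protein that binds Rab11, read 8.09, 8.13 and 8.08 in the knockdown and 6.34, 6.51 and 6.74 in the control, and rose 2.97-fold (1.57, SE 0.12, adjusted p = 0.00063). Usp6nl, an activator of GTP hydrolysis by Rab5, read 6.47, 6.63 and 6.68 against 7.47, 7.45 and 7.50 and fell 1.84-fold (-0.88, SE 0.10, adjusted p = 0.00216). In both genes the groups were far apart. Sgsm1 and Rabgap1l rose by 0.56 and 0.61, with adjusted p of 0.0122 and 0.0144. Both calls were lost without knockdown replicate 2 or control replicate 2, and that of Sgsm1 also without knockdown replicate 3 (0.0523 to 0.0665 over both genes). With RIN in the fit their adjusted p was 0.0664 and 0.0719.

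Of 34 measured exchange factors 4 rose and 4 fell. Rab3ip, or Rabin8, which loads Rab8 with GTP, read 8.95, 8.94 and 8.66 in the knockdown and 9.71, 9.64 and 9.67 in the control, and fell 1.77-fold (-0.82, SE 0.11, adjusted p = 0.00429). Every knockdown value lay below every control value. Dennd1a, an exchange factor for Rab35, read 7.65, 7.19 and 7.42 against 8.72, 8.68 and 8.67 and fell 2.41-fold (-1.27, SE 0.13, adjusted p = 0.00147). Rab35 itself had a difference of 0.04 (95% interval -0.27 to 0.35). Sbf2, a myotubularin-related DENN protein, had a difference of -0.70 (adjusted p = 0.0039), and Dennd5b rose by 0.93 (adjusted p = 0.00629).

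Of 39 measured effectors 3 rose and 2 fell. Eea1, the tether that Rab5 recruits to early endosomes, read 8.40, 8.56 and 8.66 in the knockdown and 7.50, 7.52 and 7.61 in the control, and rose 2.00-fold (1.00, SE 0.11, adjusted p = 0.00171). Rabep1, or rabaptin-5, another Rab5 effector, read 9.42, 9.41 and 9.37 against 8.94, 8.78 and 8.79 and rose 1.48-fold (0.56, SE 0.10, adjusted p = 0.0112). Neither gene had overlapping groups. The call of Rabep1 was lost without knockdown replicate 2 or control replicate 2 (0.0532 to 0.0612) and with RIN in the fit (0.0615). Myo5a, a vesicle motor, rose by 0.59 (adjusted p = 0.00873, and 0.0501 without control replicate 2). Uso1, the Golgi tether p115 that binds Rab1, fell 1.47-fold (-0.56, adjusted p = 0.0282), a call lost on leaving out any array but knockdown replicate 1 (0.0519 to 0.101) and on adding RIN (0.126).

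Of 36 subunits of tethering complexes and retromer 2 rose and 1 fell. All 36 had a mean level of at least 5, where 14.5% of all genes were called, so this list did not stand out by its count. Trappc9, a subunit of the TRAPP exchange complex, read 6.74, 6.40 and 6.61 in the knockdown and 7.93, 7.97 and 7.97 in the control, and fell 2.59-fold (-1.37, SE 0.11, adjusted p = 0.000741). Exoc2, of the exocyst that Rab8 and Rab11 engage, read 9.43, 9.45 and 9.65 against 8.75, 8.56 and 8.56 and rose 1.85-fold (0.89, SE 0.11, adjusted p = 0.00322). The groups of both were separate. Vps26b of the retromer had a difference of 0.48 (adjusted p = 0.0416, but 0.0506 to 0.116 on leaving out any array and 0.166 with RIN in the fit), and Vps41, which tethers late endosomes, one of 0.36 (adjusted p = 0.052).

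Of 6 Rab-related GTPases with other names 1 fell and 0 rose. Rabl3 had a difference of -0.47 (adjusted p = 0.048), a call lost on leaving out any array but control replicate 3 (0.0975 to 0.178), on median centring (0.0551) and on adding RIN (0.0550). Rabl6, Rabl2 and Ift27 had differences of 0.38, -0.30 and -0.20, with adjusted p of 0.0738, 0.185 and 0.495.

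**Figure D4:**
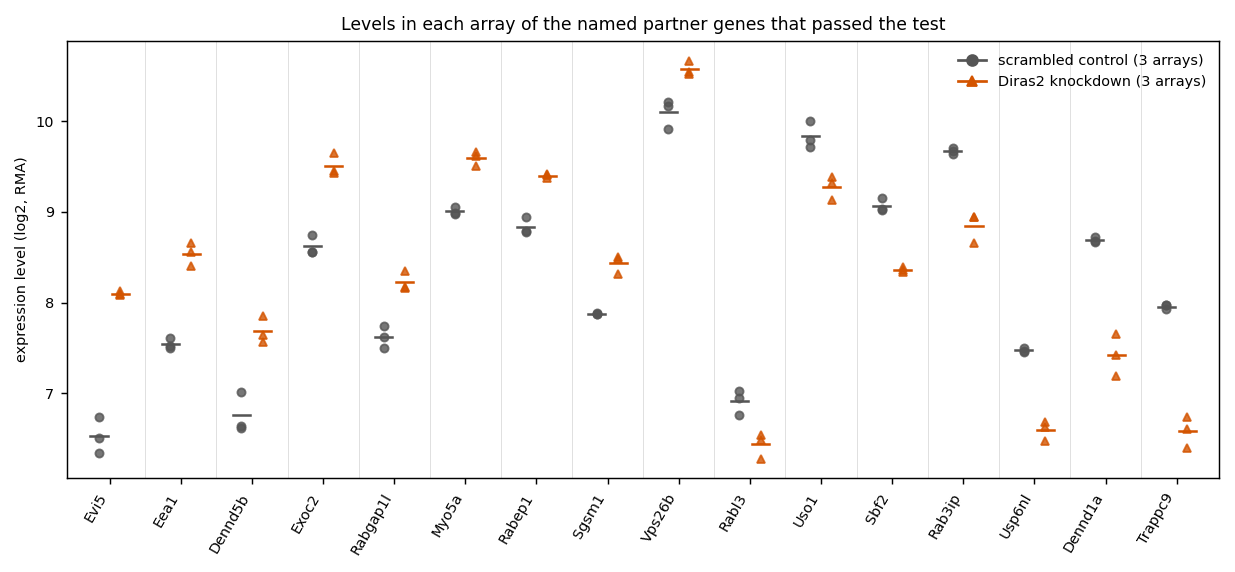
Expression level (log2 RMA, y axis) of the named partner genes that passed the test in each of the 3 control arrays (grey circles) and 3 knockdown arrays (orange triangles), with bars for the group means, ordered by difference. Evi5 stands at the upper end with 1.57 and Trappc9 at the lower end with -1.37.

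The positions of the changed members were also compared, using the order of genes in the RefSeq table of assembly GRCm38.p6. Of 36 measured genes that overlap or flank the 19 changed members 5 were themselves called, 13.9%. All 5 lay among the 29 with a mean level of at least 5, a share of 17.2% where the background at that level was 14.5%, and 2 of these went the same way as the member. These 2 were Setd7 beside Rab33b and Cnot11 beside Tbc1d8. Setd7, a lysine methyl transferase, read 7.99, 8.02 and 8.05 in the knockdown and 5.89, 5.66 and 5.64 in the control, a rise of 2.29 against 1.04 for Rab33b. Tox4, which overlaps Rab2b, went the other way, with a difference of -0.49 (adjusted p = 0.0395).

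The 16 members with a mean level under 5 included none that passed, among them Rab4a, Rab13, Rab25, Rab37 and Rab38. Calls were rare at that level over all genes. It held 10944 of the 22180 genes, while 1624 of the 1731 genes called had a mean level of at least 5. The lack of a call is thus no trait of these members. Their differences ran from -0.32 for Rab19 to 0.30 for Rab32, and at such levels RMA values may understate a change.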

How the data were processed

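Total RNA of 6 samples was read on Affymetrix arrays. Per the submitters' processing notes the authors used RMA in Affymetrix Expression Console 1.2.1.20, and the deposited probe set levels are in log2. RMA gives all arrays the same overall distribution, which hides any shift common to most genes. Of 41345 probe sets, a platform annotation gave 23521 exactly 1 symbol, 1814 several and 16010 none. All 93 members were matched to RefSeq genes of GRCm38.p6. The members, lists and tests were chosen with earlier results of these data known.

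Knockdown was compared with control by lmFit and eBayes, with no intensity trend, in limma 3.58.1 under R 4.3.3, with Benjamini-Hochberg adjustment over 22180 genes. The fit was tested on simulated data in which 200 of 22180 genes were changed, fewer than were called in the real data. It found 16.7% of changes of 0.5 on the log2 scale, 80.8% of changes of 1 and 97% of changes of 2. Of the unchanged genes 7 were called. A gene that did not pass can therefore have changed by 0.5. Single values were compared with exact permutation tests in scipy 1.17.1. Named were Diras2, all members called, 2 members with the smallest p where fewer than 2 of a role group were called, the 5 brightest, the Rab3, Rab5, Rab11 and Rab27 families, members whose probe sets differ in sign and 4 genes per partner list. Rab34, Rab26, Rab35, Rab33a, Rab2a, Rab8b, Rab9, Rab9b, Tbc1d22b, Tbc1d32, Rab19, Rab32, Gdi2, the Rabggt genes, the dim members listed, the genes flanking members and the markers were named after their values were seen. As a check of pairing, the deviations of arrays from their group means were correlated, giving 0.43, 0.12 and 0.37 where knockdown and control shared a replicate number and -0.38 to 0.06 elsewhere. The numbers were therefore taken to pair the samples, on the data and not the labels. For number 2 the margin was small, 0.12 beside 0.06, and the correlations are not independent, since deviations within a group cancel out. The main fit and the permutation tests did not use this pairing, and the replicate block is given as an alternative. Alternatives left out each array, added the replicate block, RIN or array weights, changed the scaling, the variance model, the filter or the threshold, or averaged the probe sets of a gene, and those for partners were chosen after seeing the data. Figures were drawn with matplotlib 3.10.9.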

Additional observations from a re-analysis of the deposited data

Results flagged for a closer look

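A probe set annotated with both Rab4b, a Rab of early and recycling endosomes, and Mia was left out of the comparison because it names more than 1 gene. It read 9.07, 8.84 and 8.71 in the knockdown arrays and 8.63, 8.39 and 8.09 in the controls. Every knockdown value lay above every control value, with a difference of 0.50, and the signal cannot be given to either gene. It is listed because it lies outside the genes tested and stands above the control level. Groups did not overlap for 38.6% of the genes tested with a mean level of at least 5, so the separation does not mark out this probe set. Another probe set, which names Mir3101 as well, read 2.32 to 2.86 in the knockdown and 2.33 to 2.60 in the control. The other probe sets that name a member beside other genes, those of Tbc1d8, Rab3b and Rabggtb, had differences of 0.01, 0.03 and -0.19.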

How the results depend on the processing

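No called member changed sign in any of the 15 other fits. Over the named genes other than Diras2, 720 of the values under alternatives kept their direction and their side of the threshold, 76 no longer passed, 11 newly passed and 3 changed sign. The sign changes, of Rab1a, Rab3b and Rab5c, came without knockdown replicate 1, and none of these genes passed in either fit. With 1 array left out Rab1a ran from -0.1 to 0.005, Rab3b from -0.31 to 0.027 and Rab5c from -0.178 to 0.008. Over all genes, rises ran from 383 to 800 and falls from 306 to 687 when 1 array was left out, against 924 and 807. With RIN in the fit 402 rose and 356 fell, with array weights 1401 and 1302, with an adjusted p under 0.01 354 and 290, and with an adjusted p under 0.10 1238 fell. With the replicate block 1252 fell and 1341 rose. Members that fell numbered 3 to 7 when 1 array was left out, 3 with RIN in the fit and 3 at an adjusted p under 0.01. With the replicate block 12 members rose and 9 fell, and apart from Rab10 and Rab34 the block changed no call of a member. Partners that rose numbered 5 to 11 when 1 array was left out, 5 with RIN in the fit, 19 with array weights and 6 at an adjusted p under 0.01, and 14 partners fell with array weights. The replicate block gave 16 and 12. Quantile normalisation and median centring moved the median difference of all genes by 0.00 and 0.02. Diras2 ran from -3.88 to -3.33 when 1 array was left out. The other thresholds were not run for single genes, whose adjusted p is given. Signal over background was not tested, which limits the dim members.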
